A study of Mus musculus with 2 samples.

Results

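Pax6, Emx1, Emx2, Eomes, Tbr1, Dlx1, Dlx2 and Dlx5 are transcription factor genes best known for laying out regions of the forebrain, and their RNA was measured here in the midbrain of mouse embryos. All 8 were found by gene symbol among the 43346 Ensembl gene rows of the deposited tables, and every one had counts in both libraries. The tissue was the midbrain of B6NCrl embryos at 14.5 days of development, with no treatment and no altered allele given in the labels. Each of the 2 libraries came from the midbrain of 1 pup. The collection days differ in the labels, and the libraries are called embryo 1 and embryo 2. The labels state the sex as a pool of males and females although each names a single pup. With 1 group there was nothing to compare between conditions, so levels are given per embryo, and no p-value is given. The embryos differed in age or treatment in no way that the labels record, and n = 2 limits the precision of every SD.

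Regional factors are switched on in overlapping territories of the neural tube before its cells become neurons. In the dorsal forebrain, Pax6, Emx1 and Emx2 act in dividing progenitors, Eomes (also called Tbr2) marks the intermediate progenitors that follow, and Tbr1 marks young glutamatergic neurons. In the ventral forebrain, the Dlx homeobox genes drive progenitors towards GABAergic neurons. Several of the 8 are also active elsewhere: Pax6 in the diencephalon, hindbrain and eye, Emx2 at the border of diencephalon and midbrain and in the urogenital tract, Eomes in the cerebellar rhombic lip and in natural killer cells, and the Dlx genes in the mesenchyme of the branchial arches.

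The libraries held 32716141 counts in embryo 1 and 30185472 in embryo 2, of which spike-in RNAs took 3.15% and 3.32%. Levels are in TPM, a unit that divides counts by transcript length and by the library's total and so allows genes to be set side by side. All 17 genes of a midbrain and isthmus list reached 1 TPM in both embryos, led by Otx2 at 88.1 ± 16.7 TPM (SD, n = 2, as for all values written this way), Gata3 at 83.1 ± 19.6 and Meis2 at 66.6 ± 2.91.

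The transcript sequences shown here separate forms of Pax6 and Emx2 that encode different proteins. For Pax6 the difference is exon 5a (chr2:105684751-105684792, plus strand, GRCm38), a 42-base coding exon that lies within the part encoding the DNA-binding paired domain and changes which DNA sites the protein prefers. The sequences below are from GENCODE M21 and run 5′ to 3′. Exon 5a is in capitals, with 15 bases of the neighbouring coding exons on each side.
Pax6 with exon 5a: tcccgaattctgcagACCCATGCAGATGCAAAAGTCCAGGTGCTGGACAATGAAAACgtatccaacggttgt
Pax6 without exon 5a: tcccgaattctgcaggtatccaacggttgt
For Emx2 the difference is exon 2 (chr19:59461662-59461846, plus strand), which has 185 bases, all of them coding. Since 185 is not a multiple of 3, joining exon 1 directly to exon 3 shifts the reading frame. Lower case shows the end of exon 1 and capitals the start of the exon joined to it.
Emx2 exon 1 joined to exon 2: gtcatcgcttccaagGGAACGACACAAGTC
Emx2 exon 1 joined to exon 3: gtcatcgcttccaagGTAAAAGTATGGTTT

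The 8 genes fell into a well expressed pair and a group of 6 with means between 0.425 and 1.41 TPM. Pax6 and Emx2 together made up 89.1% of the summed TPM of the 8 genes in embryo 1 and 85.1% in embryo 2. Of the 8, 3 reached 1 TPM in both embryos, namely Pax6, Emx2 and Eomes. The same level was reached by 33.6% of all Ensembl genes and by 59.5% of the 21474 protein-coding genes. The median of the 8 mean levels was 0.98 TPM, against 4.67 TPM over all protein-coding genes.

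**Figure D1:**
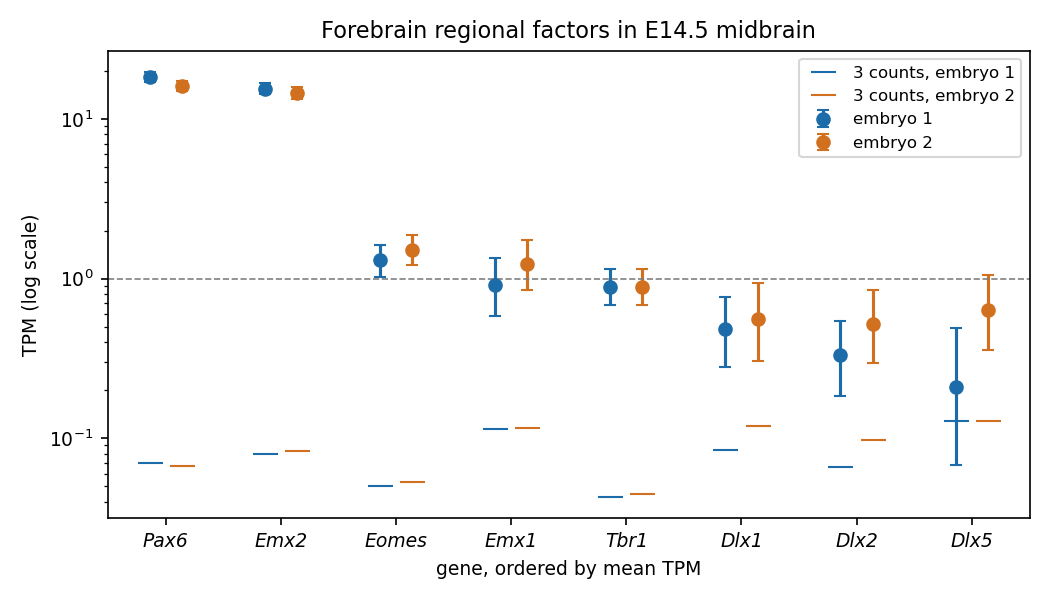
TPM of each gene on a log scale in embryo 1 (blue) and embryo 2 (orange), with bars for the 95% counting interval, short horizontal ticks for the TPM that 3 counts would give, and a dashed line at 1 TPM. Pax6 and Emx2 stand above 10 TPM, while the Dlx genes stand between 0.21 and 0.64 TPM, each above its 3-count level.

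Pax6, a paired-box and homeobox factor of radial glia, was the most abundant of the 8. The gene (ENSMUSG00000027168) lies on chromosome 2 at 105668900 to 105697364 (GRCm38, as for all coordinates). Its level was 18.36 TPM in embryo 1 (785 counts, 95% counting interval 17.1 to 19.7 TPM) and 16.08 TPM in embryo 2 (718 counts, 14.9 to 17.3 TPM). The values lie close together, and 67.4% of protein-coding genes had a lower mean. Per scaled counts the ratio of embryo 1 to embryo 2 was 0.987 (95% counting interval 0.891 to 1.09), so any difference in these was within counting error. By TPM the ratio was 1.14, outside that interval. The TPM ratio also rests on effective lengths of 2232 and 2335 bases and on another scaling.

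Most of the Pax6 coding RNA was assigned to forms without exon 5a. The annotation holds 26 Pax6 transcripts, and 8 of them carry the whole coding sequence, 4 with 1308 coding bases and 4 with 1266. The 4 transcripts with exon 5a summed to 2.54 TPM in embryo 1 and 1.53 TPM in embryo 2, against 10.04 and 9.43 TPM for those without it. The exon 5a forms thus held 20.2% and 13.96% of the TPM of these 8 transcripts. Among these 8 transcripts, the exon 5a signal of embryo 1 was assigned to 1 transcript, ENSMUST00000167211, at 2.54 TPM, while in embryo 2 it was split between that transcript at 1.00 TPM and ENSMUST00000111086 at 0.53 TPM. With posterior mean estimates, also the authors', the shares were 23.3% and 19.8%. The depth is 132 estimated counts in embryo 1 and 77.1 in embryo 2 for these full coding forms with the exon. Outside these 8, transcripts with the exon that lack the whole coding sequence also had signal, such as ENSMUST00000154643, which retains an intron, at 0.22 and 0.23 TPM, and ENSMUST00000140173, a noncoding form, at 0 and 0.52 TPM.

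**Figure D2:**
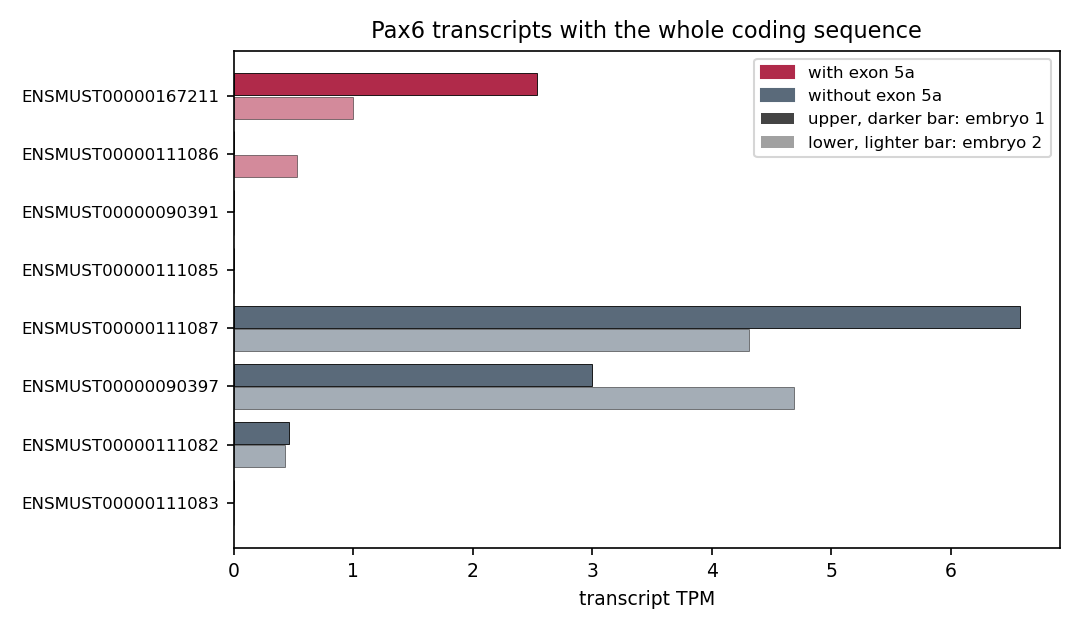
TPM of the 8 Pax6 transcripts that carry the whole coding sequence, in embryo 1 (upper, darker bars) and embryo 2 (lower, lighter bars), with forms holding exon 5a in red and forms without it in grey. The forms with exon 5a sum to 2.54 and 1.53 TPM and the forms without it to 10.04 and 9.43 TPM.

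Pax6 is transcribed from several start sites, and the estimates divided the coding RNA between the most upstream start and starts further inside the gene. The 2 coding transcripts that begin within 100 bases of the upstream RefSeq start held 52.3% of the TPM of the 8 in embryo 1 and 44.2% in embryo 2. Among them ENSMUST00000111087, without exon 5a, was at 6.58 and 4.31 TPM. Of the transcripts with internal starts, ENSMUST00000090397 was the highest, at 3.0 and 4.69 TPM, so the order of these transcripts was not the same in both embryos. The 250 bases before the upstream start (chr2:105668646-105668895, plus strand, RefSeq GRCm38.p6) are shown because these transcripts begin just after them. The capitals mark the only match to CCAAT or its reverse complement ATTGG.
Pax6 upstream window: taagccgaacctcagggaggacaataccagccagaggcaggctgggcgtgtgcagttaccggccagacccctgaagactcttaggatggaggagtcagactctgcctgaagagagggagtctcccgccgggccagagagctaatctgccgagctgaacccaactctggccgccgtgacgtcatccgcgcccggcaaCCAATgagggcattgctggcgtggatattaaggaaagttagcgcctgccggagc
The match begins 54 bases before the start. CCAAT on either strand occurs in 33.9% of 32841 RefSeq windows of the same length, and TATAAA on either strand, which occurs in 12.4% of them, was not found in these letters. The window has 15 CpG dinucleotides and a GC content of 60.8%, against medians of 6 and 52.4% over all windows.

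Emx2, a homeobox factor that patterns the cortex and the diencephalon, stood at nearly the same level in the embryos. Its level was 15.46 TPM in embryo 1 (584.87 estimated counts, 14.2 to 16.8 TPM) and 14.56 TPM in embryo 2 (526.20 estimated counts, 13.3 to 15.9 TPM). The gene (ENSMUSG00000043969) lies on chromosome 19 at 59458372 to 59465357. By scaled counts the ratio of embryo 1 to embryo 2 was 1.00 (0.891 to 1.13). Its mean exceeded that of 65.0% of protein-coding genes.

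The Emx2 estimate depends on a neighbouring gene and on the division between transcripts. Emx2os, a noncoding RNA from the opposite strand, overlaps the exons of Emx2 by 264 bases at the upstream end of Emx2. It had 4.79 TPM (452.13 counts) in embryo 1 and 3.60 TPM (338.80 counts) in embryo 2. The counts of neither gene were whole, but their sums were, at 1037 and 865, as when reads are divided between genes. Emx2os took 43.6% of the joint counts in embryo 1 and 39.2% in embryo 2, and its scaled counts were 1.20 times as high in embryo 1 (1.04 to 1.39). No strand protocol is named in the labels or files used here, so reads from the shared bases cannot be told apart by strand.

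Within Emx2 more TPM went to the short form than to the full one. The transcript with all 3 exons and 759 coding bases, ENSMUST00000062216, had 5.72 TPM (308.70 counts) in embryo 1 and 4.46 TPM (240.22 counts) in embryo 2. The transcript that joins exon 1 to exon 3 and has 207 coding bases, ENSMUST00000174353, had 9.74 TPM (276.17 counts) and 10.10 TPM (285.99 counts). The full form thus held 37.0% and 30.6% of the gene's TPM. The short form begins near the end of exon 1 and covers the 3′ part of the gene, and the spread of reads along the gene was not examined, so this division is an estimate and not a count of junctions.

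Emx1, the paralog of Emx2 that in the forebrain is restricted to the dorsal telencephalon, was far lower. It had 0.91 TPM in embryo 1 (24 counts, 0.583 to 1.35 TPM) and 1.24 TPM in embryo 2 (32 counts, 0.848 to 1.75 TPM). The gene (ENSMUSG00000033726) lies on chromosome 6 at 85187438 to 85204462. Within a library, Emx2 was 17.0 times as high as Emx1 in embryo 1 and 11.7 times in embryo 2. The longest run of identical bases between protein-coding transcripts of Emx1 and Emx2 was 14 bases, shorter than the fragment length of 100 bases on which the deposited effective lengths rest. The annotated coding transcript of Emx1 held 72.5% and 64.5% of its TPM, and the rest went to ENSMUST00000173919, which retains an intron.

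Eomes and Tbr1 are paralogous T-box factors that follow Pax6 in the cortical neuron lineage, and both were low. Eomes had 1.30 TPM in embryo 1 (78 counts, 1.03 to 1.62 TPM) and 1.52 TPM in embryo 2 (86 counts, 1.22 to 1.88 TPM). Tbr1 had 0.89 TPM in each embryo, from 62 counts in embryo 1 (0.682 to 1.14 TPM) and 60 in embryo 2 (0.679 to 1.15 TPM). Eomes was above 1 TPM in both embryos with intervals above 1, and Tbr1 was below it in both with intervals that include 1.

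In the order known from the cortex, the levels stepped down from Pax6 to Eomes to Tbr1 in both embryos. Whether the genes follow one another in this tissue was not tested. Pax6 was 14.1 times as high as Eomes in embryo 1 and 10.6 times in embryo 2. Eomes was 1.46 and 1.71 times as high as Tbr1, with counting intervals that overlapped in embryo 1 and not in embryo 2. Eomes (ENSMUSG00000032446) lies on chromosome 9 at 118478212 to 118486132 and Tbr1 (ENSMUSG00000035033) on chromosome 2 at 61802930 to 61814114. Their longest shared run of bases was 14. An antisense gene, Gm33460, which shares 118 exonic bases with Eomes, was not analysed here. The transcript with the full coding sequence held 91.0% and 86.5% of the Tbr1 TPM, and the pair of transcripts with at least 95% of the longest coding sequence held 86.9% and 73.7% of the Eomes TPM. The rest of Eomes went to ENSMUST00000150633, with 1185 coding bases in place of 2121.

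The Dlx genes were the lowest of the 8. Dlx1, which lies beside Dlx2 on chromosome 2 and is transcribed towards it, had 0.48 TPM (17 counts, 0.280 to 0.769 TPM) in embryo 1 and 0.56 TPM (14 counts, 0.306 to 0.940 TPM) in embryo 2. Dlx2 had 0.33 TPM (15 counts, 0.185 to 0.544 TPM) and 0.52 TPM (16 counts, 0.297 to 0.844 TPM). Dlx5, a gene of later GABAergic precursors, had 0.21 TPM (5 counts, 0.0682 to 0.490 TPM) and 0.64 TPM (15 counts, 0.358 to 1.06 TPM). All 3 stood above the level that 3 counts would give, which was 0.0842 and 0.120 TPM for Dlx1, 0.0660 and 0.0972 for Dlx2, and 0.128 in both embryos for Dlx5. The 3 genes summed to 37 counts in embryo 1 and 45 in embryo 2. Dlx1 (ENSMUSG00000041911) spans 71528113 to 71533981 on the plus strand and Dlx2 (ENSMUSG00000023391) 71543408 to 71546754 on the minus strand, and Dlx5 (ENSMUSG00000029755) lies on chromosome 6 at 6877805 to 6882085. The longest run of identical bases shared by any pair of the 3 was 15, between Dlx1 and Dlx2.

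The forms of the Dlx genes rest on few counts. The full coding transcript of Dlx1 and that of Dlx5 were listed at 0 in both embryos. For Dlx1, 13.75 of 17 counts in embryo 1 and 8.12 of 14 in embryo 2 went to a transcript with a retained intron, ENSMUST00000145088. In TPM the leading Dlx1 form of embryo 2 was ENSMUST00000145444, of the nonsense-mediated decay type, at 0 and 0.43 TPM, while ENSMUST00000152711 and ENSMUST00000172629 had 0.12 and 0.14 TPM in embryo 1 and 0 in embryo 2. For Dlx5, all counts in both embryos went to ENSMUST00000142635, with 438 coding bases in place of 867. For Dlx2 the full coding transcript took 100% of TPM in embryo 1 and 59.6% in embryo 2, where 2.15 counts went to ENSMUST00000134249, which retains an intron. This division also moved the Dlx2 gene level, since 15 and 16 counts became 0.33 and 0.52 TPM through effective lengths of 2374 and 1614 bases. By posterior mean, a different share was assigned, which gave the full Dlx5 transcript 46.4% and 26.1%.

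**Figure D3:**
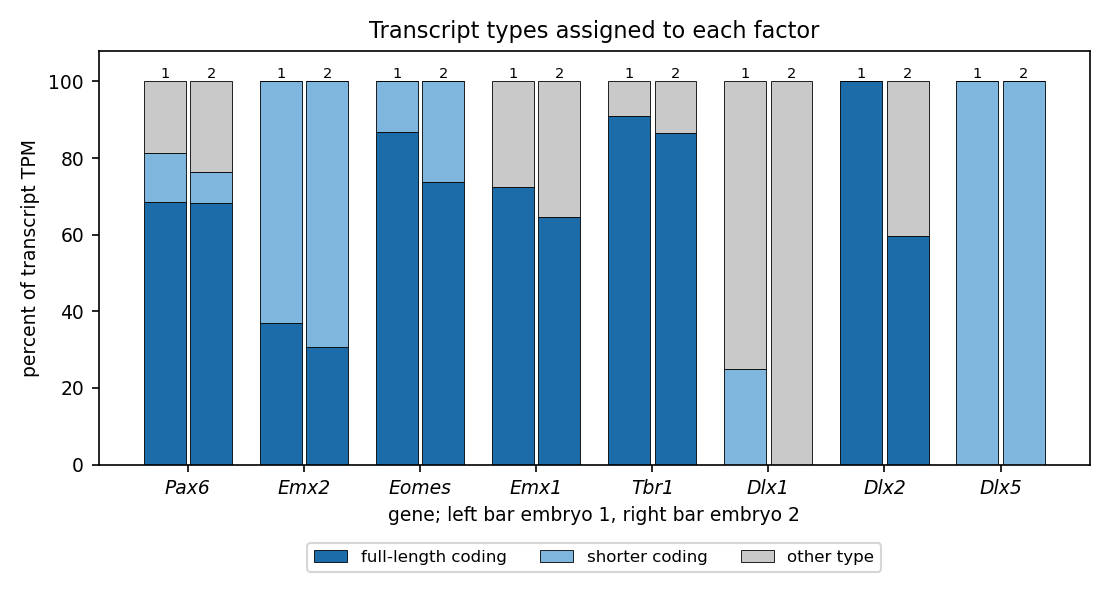
Share of each gene's summed transcript TPM, in percent, held by transcripts with at least 95% of the longest coding sequence (dark blue), by shorter protein-coding transcripts (light blue) and by other transcript types (grey), with embryo 1 on the left and embryo 2 on the right of each pair. Full-length coding forms hold 68.6% and 68.2% of Pax6, 37.0% and 30.6% of Emx2, and none of Dlx1 or Dlx5.

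Genes linked to the Dlx genes were also low. Dlx1as, the antisense RNA that shares 335 exonic bases with Dlx1, had 0.71 TPM (8 counts) in embryo 1 and 0.28 TPM (3 counts) in embryo 2. All of these counts were on the transcripts ENSMUST00000122990 and ENSMUST00000140271, which lie outside Dlx1, and the Dlx1as transcripts that overlap it had 0 counts in both embryos. Dlx6, the neighbour of Dlx5, had 2 counts and 1 count. Dlx6os1, the noncoding RNA known as Evf2 that is transcribed across Dlx6, had 6 counts and 6.16 counts, or 0.08 TPM in each embryo. Pax6os1, the antisense gene at the upstream end of Pax6, had 0 counts in embryo 1, where 3 counts would give 0.168 TPM, and 9 counts (0.51 TPM) in embryo 2. Genes of GABA synthesis were high in the same libraries. The glutamate decarboxylase genes Gad1 and Gad2, which make GABA, stood at 86.9 TPM in each embryo and at 46.5 ± 1.48 TPM. Of the neuron genes on the glutamatergic side, Tubb3 and Dcx, which mark young neurons of any kind, stood at 1612 ± 36.8 and 236 ± 85.0 TPM, and Slc17a6, a vesicular glutamate transporter gene, at 77.1 ± 5.14 TPM. The other vesicular glutamate transporter gene of that list, Slc17a7, had 0.42 TPM in embryo 1 and 0.24 TPM in embryo 2.

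By mean TPM the order was Pax6, Emx2, Eomes, Emx1, Tbr1, Dlx1, and then Dlx2 and Dlx5 with equal means of 0.425. The step from Emx2 to Eomes was the clear one, with the lowest Emx2 value at 14.56 TPM and the highest Eomes value at 1.52. Among the other neighbours the libraries of Pax6 and Emx2, Eomes and Emx1, Emx1 and Tbr1, and Tbr1 and Dlx1 did not overlap. Within an embryo the counting intervals of these neighbours overlapped in both embryos, except those of Pax6 and Emx2, which overlapped in embryo 2 and not in embryo 1. The gap between Emx1 and Tbr1 was 0.91 against 0.89 TPM, and that between Eomes and Emx1 was 1.30 against 1.24. The mean of Eomes was 1.41 ± 0.156 TPM and that of Emx1 1.075 ± 0.233 TPM, so their steps to the next gene down, of 0.335 and 0.185 TPM, are of the order of the SD. Pax6 averaged 17.2 ± 1.61 TPM and Emx2 15.01 ± 0.636 TPM, a step of 2.21 TPM. Dlx1, Dlx2 and Dlx5 overlapped one another, so their order is not resolved.

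Other forebrain genes were also divided into high and low. In a list of 25, 11 reached 1 TPM in both embryos, and the median was 0.70 TPM. The highest were Lhx2, a LIM homeobox factor, at 46.4 ± 12.8 TPM, and Bcl11b, a zinc finger factor of projection neurons, at 31.9 ± 2.14 TPM. Each of these is also known from regions outside the forebrain. The lists of the midbrain and of regions around it were higher, with all members at 1 TPM or more. Some genes stand in more than 1 list, and the region that the RNA of a listed gene came from was not tested. Medians were 18.5 TPM for 11 thalamus and pretectum genes, led by Tcf7l2 at 581 ± 36.6, Lhx9 at 94.0 ± 9.71 and Ebf1 at 82.5 ± 9.12, and 11.6 TPM for the midbrain and isthmus list. The 9 rhombic lip genes include Pax6 itself, and their median of 17.2 TPM is the Pax6 mean. Lhx9, Barhl1 at 47.8 ± 3.03 and Lhx2 were on top of that list. The 7 neural progenitor genes had a median of 36.8 TPM, led by Fabp7 at 1362 ± 209.6, Vim at 424 ± 110 and Hes5 at 92.9 ± 8.54. The middle gene of this list was Top2a in both embryos. The median, at 54.16 TPM in embryo 1 and 19.35 TPM in embryo 2, is thus the level of that gene and not a shift of the list. The summed TPM of the list was 1913 in embryo 1 and 1998 in embryo 2. By scaled counts 5 of the 7 progenitor genes were higher in embryo 1. Pax6 and Emx2 lay within the range of the midbrain and isthmus list and of the thalamus and pretectum list, which include neither gene. Eomes was about level with the lowest gene of the midbrain and isthmus list, Pax2, which had 1.36 TPM in embryo 1 and 1.47 TPM in embryo 2. In bulk tissue, fewer cells that express a gene and less RNA in each cell cannot be told apart.

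**Figure D4:**
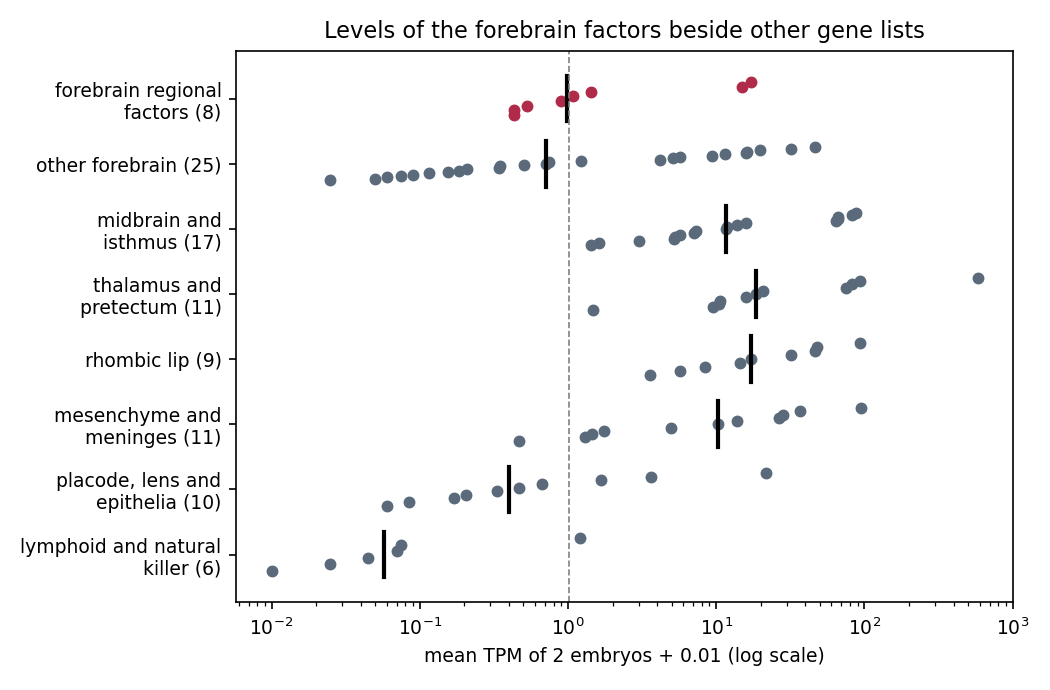
Mean TPM of the embryos plus 0.01, on a log scale, for each gene of the 8 forebrain factors (red) and of 7 other lists (grey), with a black line at each median and a dashed line at 1 TPM. The factors have a median of 0.98 TPM, and the midbrain and isthmus and the thalamus and pretectum lists have medians of 11.6 and 18.5 TPM.

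For the factors with enough reads, the scaled counts of the embryos differed by less than counting error. Of the 8 genes, 4 had at least 100 counts summed over both libraries (Pax6, Emx2, Eomes and Tbr1), and 0 of these 4 differed by 2-fold or more, against 4.85% of the 14011 genes with that many counts. For Eomes the ratio of embryo 1 to embryo 2 was 0.819 (95% counting interval 0.595 to 1.13), and for Tbr1 it was 0.933 (0.643 to 1.35). Emx1, with 56 summed counts, had a ratio of 0.677 (0.382 to 1.19), Dlx1 of 1.10 (0.508 to 2.40) and Dlx2 of 0.846 (0.390 to 1.83). Each of these intervals includes 1, so a difference was not detectable at this depth. Dlx5 was 3.32-fold higher in embryo 2 on 5 against 15 counts (1.15 to 11.7). Its 20 summed counts fall below the limit of 100, and 35.1% of all genes with 10 to 49 summed counts were past 2-fold.

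**Figure D5:**
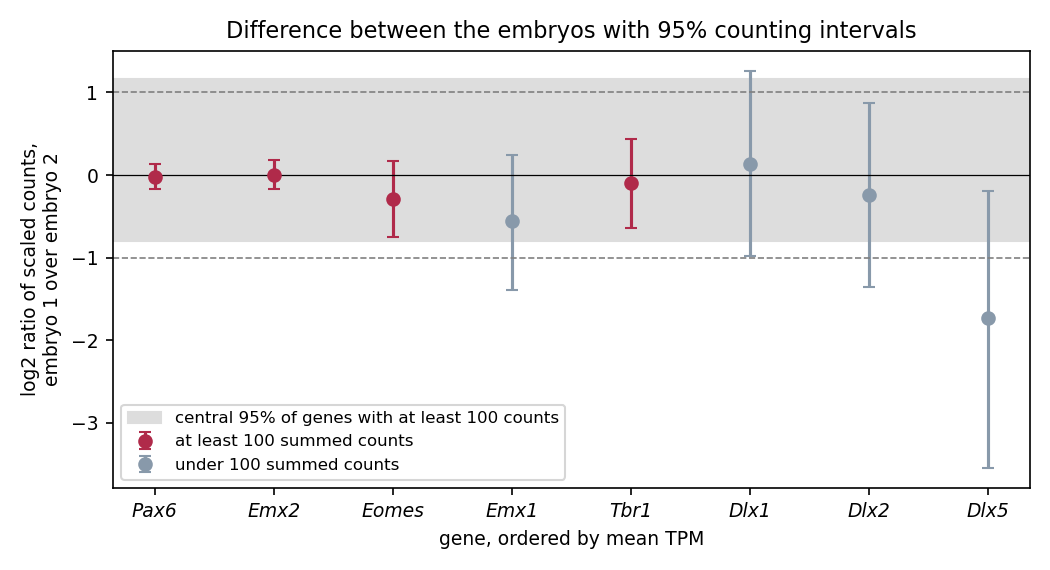
Log2 ratio of scaled counts, embryo 1 over embryo 2, with 95% counting intervals for each gene, red for at least 100 summed counts and grey for fewer, with the central 95% of all genes at that depth shaded and dashed lines at 2-fold. Dlx5 is the only gene of the 8 whose interval excludes 0.

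Connective tissue markers differed between the libraries. The 11 mesenchyme and meninges genes summed to 420.9 TPM in embryo 1 and 18.95 TPM in embryo 2, and all 11 were higher in embryo 1, led by the collagen genes Col3a1 at 187 and 2.81 TPM and Col1a2 at 71.2 and 1.90 TPM, and by Dcn, a matrix proteoglycan gene, at 55.5 and 1.0 TPM. The summed level of Dlx1, Dlx2 and Dlx5 was 1.02 TPM in embryo 1 and 1.72 TPM in embryo 2, from 37 and 45 counts. By scaled counts this sum was 1.35 times as high in embryo 2, and Dlx5 alone had 5 and 15 of the counts. Placode, lens and epithelial genes, set beside Pax6 because of its place in the eye, summed to 32.1 and 25.6 TPM. Of 10 such genes 3 reached 1 TPM in both embryos, among them Eya1 at 5.11 and 2.14 TPM and Cryab at 1.66 ± 0.580 TPM. The lens crystallin gene Cryaa had 2 counts and 1 count. The lymphoid and natural killer genes, set beside Eomes, summed to 2.15 and 0.59 TPM, with 0 of 6 at 1 TPM in both embryos, and Cd3e, which defines T cells, had 0 counts in both. The general leukocyte gene Ptprc gave 1.92 and 0.47 TPM of these sums, while Eomes had 1.30 and 1.52 TPM. The part of any of these cells in the levels of the 8 factors was not tested.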

How the data were processed

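Total RNA longer than 200 nt was sequenced from 10 ng of input per library, per the labels' protocols, which name the mirVana extraction and a SmartSeq protocol. The deposited tables were made on mm10 with GENCODE M4, per the submitters' text records. No label or file used here names the quantifier. The authors deposited expected counts (estimated reads, not whole where reads are divided), TPM, posterior mean TPM and FPKM for genes and transcripts. Symbols, coordinates and transcript structures came from GENCODE M21 on the same assembly (GRCm38) and matched 42462 of 43346 Ensembl rows (98.0%). All 48 transcripts of the 8 genes in the files had the same length there. The 96 spike-in rows and 26249 other rows stayed out of library sizes.

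Scaling factors came from TMM in edgeR 4.0.16 on rounded counts, and the calculation was tested on simulated data. Ratios were taken from the unrounded counts. Ratios use a prior count of 0.5 on the log2 scale only. Count intervals are exact Poisson and ratio intervals exact binomial at 95%, both on rounded counts. They cover counting error only, since reads are not independent molecules, and TPM intervals hold the transcript division fixed. A gene was counted as detected from 1 TPM upwards in both libraries, and the floor was 3 counts. Named genes were all 8 members, the 3 highest genes of each list, those with 0 counts in both libraries, and overlapping or linked genes. Transcripts were named from a 20% share of their gene's TPM in either embryo upwards, and for Pax6 also as parts of sums. Cryaa, Pax2, Slc17a7, Top2a and the Pax6 transcripts outside those sums were named after their values were seen. Some genes that this rule names are not reported here. The members and lists were chosen with earlier results of these data known. The settings tried are given in the closing section.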

Additional observations from a re-analysis of the deposited data

How the results depend on the processing

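Of the 8 genes, 3 reached 1 TPM in both embryos, and this number became 5 at a threshold of 0.5 TPM, where Emx1 and Tbr1 were added. It lay between 2 and 4 under the other settings, and with 1 embryo left out it was 3 to 4. The median level of 0.98 TPM became 0.76 TPM when transcripts of protein-coding type alone were summed, and with 1 embryo left out it was 0.90 to 1.07 TPM. No member with at least 100 summed counts was past 2-fold under any scaling tried (TMM, DESeq2 size factors, total gene counts and spike-in totals), by ratios of TPM or at 1.5-fold. With a minimum of 10 summed counts or with none, 1 member was past 2-fold, which was Dlx5 (11.7% and 26.2% of all genes with at least 10 and at least 1 summed counts). With a prior count or pseudocount added, the log2 ratio of Dlx5 lay between -1.64 and -1.26. Those of Pax6, Tbr1 and Dlx1 changed sign between settings, and none of them was called different. Of 40 recalculated mean levels 9 moved by more than the SD between the embryos. The 40 include the levels with 1 embryo left out, which at n = 2 cannot move by this measure. For Tbr1 the SD was 0, so any change counted as moved. Posterior means raised the share of Pax6 forms with exon 5a past that SD, as given above, and moved the full-length coding share of 4 of 8 genes. No paired analysis was possible because the series has 1 group of 2 libraries. Depth limits the Dlx genes most, with 5 to 17 counts per library.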
